A study of Drosophila melanogaster with 3 samples.

Results

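Cytochrome P450 genes are described here by whether Cycle, the partner of the circadian activator Clock, had a binding summit at their starts in white prepupae. The group comprised the protein-coding genes whose symbol begins with Cyp, a number and a letter, without Cyp18a1, the ecdysone-inactivating enzyme. It held 82 of 13945 protein-coding genes on the 6 chromosome arms. The symbols Cyp1 and Cyp40 also begin with Cyp and a digit, but name cyclophilins, and these 2 genes were set apart. The P450 genes of ecdysone synthesis carry other symbols (dib, shd, sad, phm, spo and spok) and appear only among the comparison lists. A gene is called bound here if a summit of the thresholded list lay at most 1 kb from any of its annotated transcript starts.

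P450 enzymes are haem monooxygenases that insert an oxygen atom into lipids, hormones, plant toxins and insecticides. Microsomal P450s sit in the endoplasmic reticulum and take electrons from cytochrome P450 reductase, whereas mitochondrial P450s take them from ferredoxin. In insects the families fall into clans: clan 3 (Cyp6, Cyp9, Cyp28 and relatives) and clan 4 (Cyp4, Cyp313 and relatives) hold many genes of detoxification and fatty acid metabolism, often in tandem arrays. Detoxification genes of the fly have been reported to cycle over the day.

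Chromatin immunoprecipitation with sequencing (ChIP-seq) used an anti-GFP antibody on whole white prepupae, animals at the start of metamorphosis, of 1 Drosophila melanogaster line that stably expresses Cycle with GFP at its C terminus. All 3 biological replicates came from this line with the sexes pooled, and they form 1 group, so conditions could not be compared. The labels give neither the promoter of the fusion nor the state of the native cyc gene, and the exact age is unknown. Peak lists hold no expression values, so stage and tissue could not be checked against markers, and chromatin of whole animals cannot tell occupancy in few cells from weak occupancy in many. The thresholded list, the peaks that passed the irreproducible discovery rate of the authors, held 7227 peaks. The pooled list held 29484, and the replicates 30000, 30000 and 29967. Every list was ranked by the signal value that the authors gave each peak, with rank 1 the strongest, and ranks 1 to 7227 of the pooled list are the thresholded peaks.

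The sequences below are shown because signals at P450 starts above or just below the threshold were centred on them. Those of Cyp6u1, Cyp6a2 and Cyp317a1 and the weaker summit of Cyp6v1 are not printed. Each is 101 bases long, centred on a summit, and read 5′ to 3′ on the strand of the gene from the RefSeq Release 6 genome (dm6). The loci with a thresholded summit were Cyp310a1 at chr2L:18653473-18653573 (minus strand), Cyp4d20 at chr3L:2479365-2479465 (minus), Cyp6v1 at chrX:20656735-20656835 (plus) and Cyp9f2 at chr3R:12406307-12406407 (minus). Another pair fell just short of the threshold, Cyp6t1 at chrX:21519406-21519506 (minus) and Cyp6a16 at chr2L:5623865-5623965 (minus). Capitals mark a match, on either strand, to one of the 7 motifs spelled out after the sequences, or to GATAA.
Cyp310a1: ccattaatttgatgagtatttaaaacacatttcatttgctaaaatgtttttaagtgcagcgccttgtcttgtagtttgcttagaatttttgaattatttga
Cyp4d20: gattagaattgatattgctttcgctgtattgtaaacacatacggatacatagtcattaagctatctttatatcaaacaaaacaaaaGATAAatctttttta
Cyp6v1: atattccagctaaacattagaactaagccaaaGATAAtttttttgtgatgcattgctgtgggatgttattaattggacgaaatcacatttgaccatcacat
Cyp9f2: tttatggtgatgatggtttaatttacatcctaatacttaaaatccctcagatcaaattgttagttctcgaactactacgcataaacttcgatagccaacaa
Cyp6t1: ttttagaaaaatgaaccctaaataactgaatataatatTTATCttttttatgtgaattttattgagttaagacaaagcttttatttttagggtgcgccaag
Cyp6a16: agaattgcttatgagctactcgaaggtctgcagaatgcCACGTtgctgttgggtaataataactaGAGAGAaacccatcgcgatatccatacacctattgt
CACGTG is the E-box of Clock and Cycle, ACGTG, which lies within it, and the related GCGTG are the core sites of other bHLH-PAS dimers, and TGACNNNGC is the antioxidant response element of the cap-and-collar factor. TATCGATA is the site of the DREF factor, GAGAGA that of GAGA factor, and GTGCAC is a palindrome outside these sites. GATAA, the site of GATA factors, was added after these windows had been seen. In the windows printed, the 7 motifs occurred in Cyp6a16 alone, as ACGTG (read as CACGT on the strand shown) and GAGAGA. Cyp4d20, Cyp6v1 and Cyp6t1 held GATAA or its complement TTATC.

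Few P450 genes had a thresholded Cycle summit at a start. The count was 6 of 82, or 7.32% (exact Clopper-Pearson 95% interval 2.73 to 15.2%), against 28.6% of all protein-coding genes. The 6 were Cyp6u1, Cyp310a1, Cyp4d20, Cyp6v1, Cyp6a2 and Cyp9f2. In the pooled list, which adds weaker peaks, 24 of 82 had a summit, or 29.3% (19.7 to 40.4%), against 55.4% of all genes. The intervals cover counting error and take genes as independent, although genes of a tandem array share their surroundings. The P450 share was also below that of all genes in each replicate list taken alone. Replicate 1 placed a summit at 26.8% of the P450 genes and 46.1% of all genes. The shares were 28.0% against 58.9% in replicate 2, and 26.8% against 58.1% in replicate 3.

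**Figure D1:**
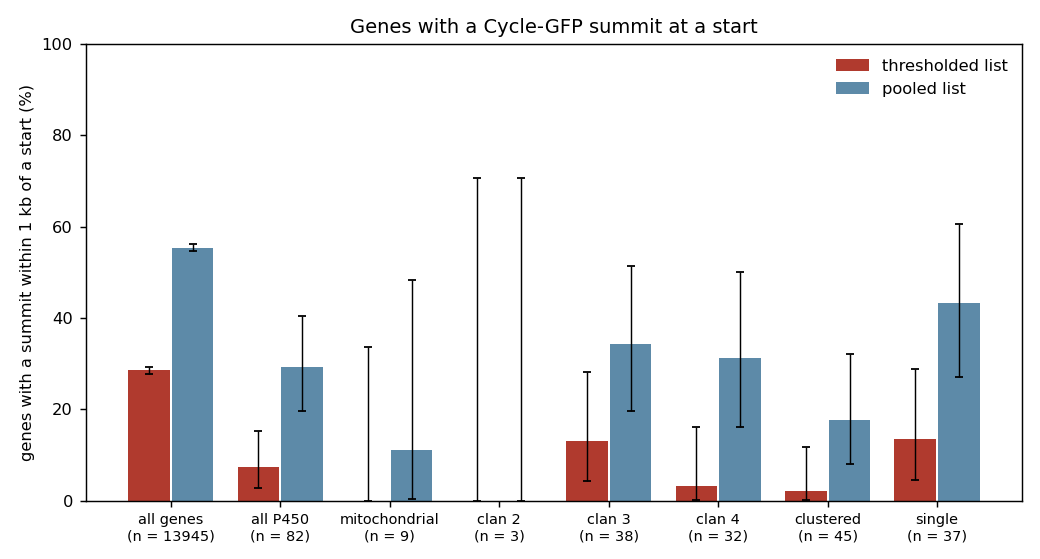
Share of genes (%) with a summit within 1 kb of a start in the thresholded and pooled lists, for all genes and for groups of P450 genes; bars are shares and error bars exact 95% intervals. The P450 bars for the thresholded list stand at 7.32% against 28.6% for all genes, and clustered genes at 2.22% against 13.5% for single genes.

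Most P450 genes lay several kb or more from any thresholded summit. The median distance from a start to the nearest thresholded summit was 14372 bp for the 82 genes (quartiles 5780 and 21078 bp), against 4737 bp for the other genes (quartiles 505 and 13594 bp). Allowing a summit anywhere in the gene body raised the share of all genes to 32.4% and added no P450 gene. Within the group the distance ran from 86 bp at Cyp6u1 to 75381 bp.

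**Figure D2:**
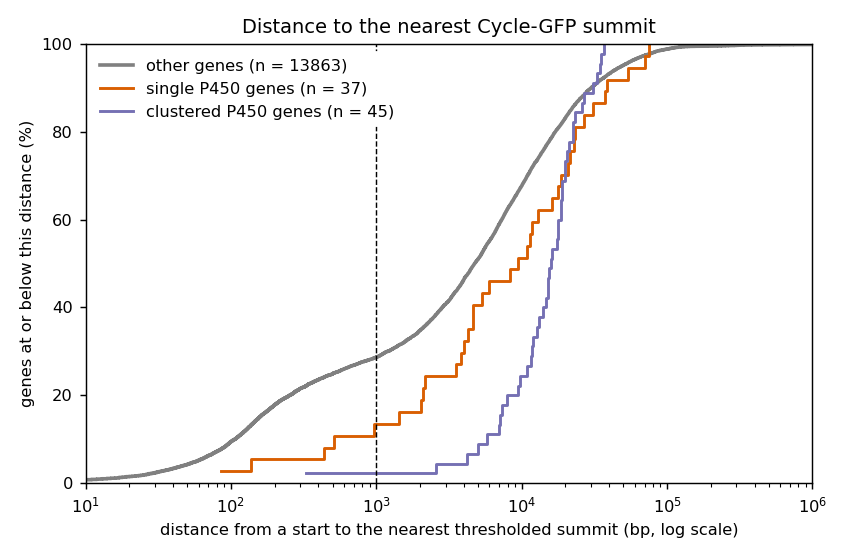
Cumulative share of genes (%) by distance from a start to the nearest thresholded summit (bp, log scale), for single P450 genes, clustered P450 genes and all other genes; the dashed line marks 1 kb. The median is 15982 bp for the 45 clustered genes, 9379 bp for the 37 single genes and 4737 bp for the others.

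The share bound over all genes moved with the number of starts and the closeness of neighbours. Of the P450 genes, 70 have 1 annotated start, and 4 of these were bound (5.71%, interval 1.58 to 14.0%), against 22.3% of all genes with 1 start. A start of another gene lay within 1 kb for 14 P450 genes, of which 2 were bound (14.3%), against 43.4% of all genes so placed. Of the 68 without such a neighbour, 4 were bound (5.88%), against 17.4% of all such genes. The P450 share was below that of all genes in each of these classes, though with a close neighbour its interval (1.78 to 42.8%) is wide.

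Cyp6u1 (FBgn0033121, 6971996 to 6975026 on the minus strand of 2R), a clan 3 gene, had the strongest summit of the group, at rank 313 with a signal of 929. Its relative signal, the signal of a replicate divided by that replicate's median over thresholded peaks, was 3.23, 4.76 and 4.56 in replicates 1, 2 and 3, a mean of 4.18 ± 0.829 (SD, n = 3). All replicates placed it well above the median peak. The summit (6975112) lay 86 bp upstream of Cyp6u1 but 21 bp inside the start of Ufsp1, a Ufm1-specific protease gene, in a 5′ UTR exon of Ufsp1. The lists cannot assign the summit to one of these overlapping genes.

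Cyp310a1 (FBgn0032693, 18651058 to 18653010, minus strand of 2L), the single Cyp310 gene, followed at rank 458 with a signal of 787. Its relative signal was 4.03, 3.63 and 3.19, a mean of 3.62 ± 0.420 (SD, n = 3), the values lying close together. The summit (18653523) lay 513 bp upstream of the gene, which is nested in MESR3, and in an intron of MESR3. No start of another gene lay within 1 kb of it.

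Cyp4d20 (FBgn0035344, 2476259 to 2478448, minus strand of 3L) was the bound gene of clan 4, at rank 1543 with a signal of 388. The relative signal of the overlapping peaks was 1.06, 1.73 and 2.33, a mean of 1.71 ± 0.639 (SD, n = 3), with replicate 1 near the median peak. The summit lay 967 bp upstream in an intron of Svil, the supervillin gene, near the edge of the window. In replicate 3 the overlapping peak ranked 1007, but the strongest summit within 1 kb of the start ranked 8189.

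Cyp6v1 (FBgn0031126, 20657122 to 20661425, plus strand of X) was the P450 gene with more than 1 thresholded summit. The stronger, at rank 1672 and 337 bp upstream, had a signal of 369 and relative signals of 1.32, 1.66 and 2.00, a mean of 1.66 ± 0.340 (SD, n = 3). The weaker, at rank 5579 and 138 bp upstream, had a signal of 142 and relative signals of 0.443, 0.174 and 2.00 (mean 0.874 ± 0.988, SD, n = 3). Its value in replicate 3 is that of the same wide replicate peak as the stronger summit, so only replicates 1 and 2 measured it separately, and both gave less than the median peak. Both summits were intergenic, with Cyp6v1 as the nearest start.

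Cyp6a2 (FBgn0000473, 6779749 to 6781491, minus strand of 2R), an enzyme that metabolises insecticides and is overproduced in some resistant strains, ranked 2597 with a signal of 273. Its relative signal was 1.43, 1.23 and 1.04, a mean of 1.24 ± 0.195 (SD, n = 3), slightly above the median peak in each replicate. The summit (6781928) lay 437 bp upstream, in an intron of Epac, a cAMP-activated exchange factor gene in which Cyp6a2 is nested.

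Cyp9f2 (FBgn0038037, 12403340 to 12406028, minus strand of 3R) was the weakest of the 6, at rank 6612 with a signal of 121. Replicate 1 had no overlapping peak, and replicates 2 and 3 gave 0.666 and 0.571 (mean 0.619 ± 0.0667, SD, n = 2), both below the median peak. The summit lay 329 bp upstream of Cyp9f2 and 175 bp upstream of the divergent gene CG5167. The settings without replicate 2 and without replicate 3 each required an overlapping peak among the 7227 strongest of replicate 1. Cyp9f2 was therefore lost in both, leaving 5 of 82, and this loss adds nothing to its absence from replicate 1.

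**Figure D3:**
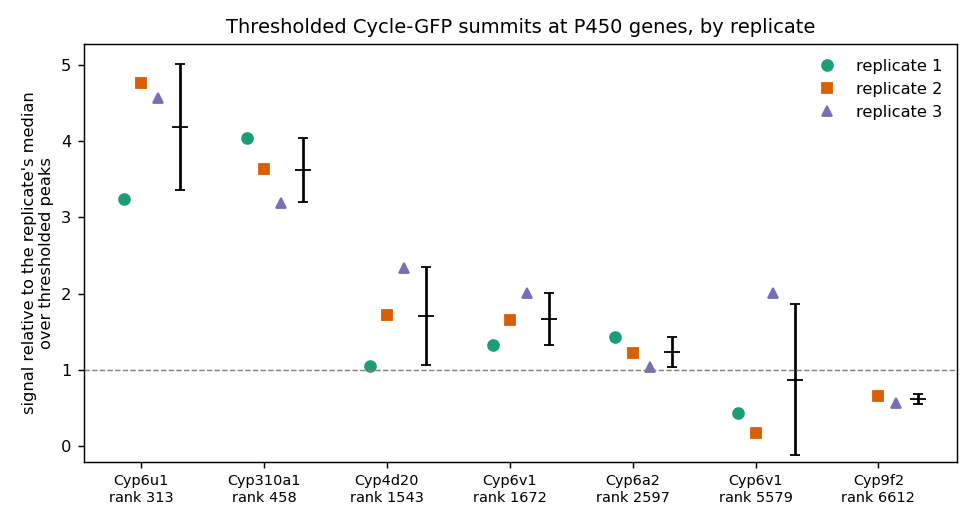
Signal of each replicate at the 7 thresholded summits of P450 genes, divided by the median of that replicate over thresholded peaks (dashed line at 1); points are replicates and bars the mean ± SD. Cyp6u1 and Cyp310a1 lie above 3 in every replicate, while Cyp9f2 lies below 1 in the 2 replicates that had a peak.

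All 7 summits, 2 of them at Cyp6v1, lay upstream of the P450 start. The share of upstream summits over all genes is not given here, so this placement is a description. Among the 3461 thresholded peaks within 1 kb of any gene start, whose median signal was 223, the strongest summits of the 6 genes spanned nearly the whole range. Cyp6u1 stood at the 94.0th percentile and Cyp310a1 at the 91.7th. Cyp9f2 stood at 8.23. For 4 of the 6 genes their own start was the nearest to the strongest summit, and for Cyp6u1 and Cyp9f2 it was that of another gene. Among all bound genes, 31.7% had another gene's start nearer.

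None of the 7 motifs other than GATAA lay within 100 bp of any of the 7 summits. Over all 7227 thresholded summits, CACGTG was present at 1.63%, ACGTG at 12.3% and GCGTG at 14.1%. The shares were 4.04% for TGACNNNGC, 3.32% for TATCGATA, 9.66% for GAGAGA and 8.36% for GTGCAC. Every one of these was lacking at all 7 P450 summits, a small sample, and at 59.4% of all summits. GATAA was present within 100 bp of 5 of the 7 summits (Cyp6u1, Cyp4d20, Cyp6v1 at rank 1672, Cyp6a2 and Cyp9f2), against 40.5% of all summits. That motif was picked from these windows and its share is a description. The median GC content of the windows, 100 bp either side of the summit, was 29.4% at the 7 summits and 34.3% at all summits.

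Promoters, taken from 250 bp upstream to 50 bp downstream of the outermost start, were also searched on both strands in all genes. CACGTG occurred in the promoter of 1 P450 gene, Cyp4e1, or 1.22%, against 4.20% of all promoters. Cyp4e1 had no summit in the pooled list and 1 in replicate 1 alone, at rank 27316. TGACNNNGC occurred at 3 (Cyp6a8, Cyp304a1 and Cyp4d14), or 3.66% against 8.63%. ACGTG was found at 23.2% in both sets. Elements of housekeeping promoters were also counted. TATCGATA was present at 2.44% of P450 promoters (Cyp28d2 and Cyp6u1) and 9.36% of all, and GGTCACAC, a form of the Ohler-1 element, at none of the P450 promoters and 7.70% of all. Over all genes, 42.5% of those with TATCGATA and 41.0% of those with GGTCACAC were bound, against 27.1% and 27.5% of those without. TATAAA, the TATA box, was present at 52.4% of P450 promoters and 45.8% of all, and its carriers were bound at 28.1%. Median GC content was 38.0% in both sets, and the part of promoter type in the low P450 share was not tested.

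None of the mitochondrial genes in the group had a thresholded summit at a start. They number 9 (7 Cyp12 genes, Cyp49a1 and Cyp301a1). The clan also includes 3 genes of ecdysone synthesis, dib, shd and sad, left out of the group by their symbols, and with these 1 of 12 was bound (8.33%, interval 0.211 to 38.5%), namely shd. Within the group, 0 of 9 allows a share of up to 33.3%, which includes the background of all genes. In the microsomal clans 6 of 73 were bound, or 8.22% (3.08 to 17.0%), and with so few genes a difference between mitochondrial and microsomal genes was not detectable. The start nearest to a thresholded summit among mitochondrial genes was that of Cyp12c1, at 4287 bp. For Cyp49a1 the distance was 11405 bp, for Cyp12a4 12820 bp and for Cyp12a5 14030 bp. Cyp12e1 lay at 18651 bp, Cyp12d1-p at 18916 bp, Cyp12d1-d at 22679 bp, Cyp301a1 at 23391 bp and Cyp12b2 at 37209 bp. The median of the 9 was 18651 bp, against 13054 bp for the microsomal genes.

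In the pooled list 1 of the 9 mitochondrial genes had a summit (11.1%, interval 0.281 to 48.2%), against 31.5% of the microsomal and 55.4% of all genes, and the interval includes the microsomal share. It was Cyp12b2, with a summit at rank 22991 and a signal of 30.9 in its coding exon. It ranked 18374 in replicate 2 and 26807 in replicate 3 and was absent from replicate 1. Cyp49a1 had a summit in replicate 1 alone, at rank 28929. Cyp12d1-p and Cyp12d1-d, which encode a P450 linked to DDT resistance, are near-identical copies. Every 50-base word within 1 kb of their starts occurs again in the genome, and how the authors treated reads of such repeats is not given. Cyp12a4, linked to resistance to lufenuron, and Cyp301a1, needed for adult cuticle, had no summit in any list.

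Among the microsomal genes, clan 3 held 5 of the 6 bound genes. The share was 5 of 38, or 13.2% (4.41 to 28.1%), in clan 3 and 1 of 32, or 3.13% (0.0791 to 16.2%), in clan 4, and these intervals overlap. In the pooled list the clans were close, at 34.2% and 31.3%. Clan 2, with 3 genes (Cyp303a1, Cyp304a1 and Cyp305a1), had no pooled summit. By family, 3 of 23 Cyp6 genes, 1 of 22 Cyp4 genes and 1 of 6 Cyp9 genes were bound, and none of the 6 Cyp313 and 4 Cyp28 genes. The intervals of Cyp6 (2.78 to 33.6%) and Cyp9 (0.421 to 64.1%) include the 28.6% of all genes. That of Cyp4 (0.115 to 22.8%) lies below it. The Cyp313 and Cyp28 families are too small to tell their lack of bound genes from the share of all genes.

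Clusters of P450 genes held 1 of the 6 bound genes. With member gene bodies at most 10 kb apart, 45 genes fell into 16 clusters and 37 stood alone. Of the clustered genes 1 was bound (2.22%, interval 0.0562 to 11.8%), against 5 of 37 single genes (13.5%, 4.54 to 28.8%). These intervals overlap, and genes of a cluster are not independent. The bound clustered gene was Cyp9f2, which had no overlapping peak in replicate 1. The pooled list gave 8 of 45 (17.8%, 8.00 to 32.1%) and 16 of 37 (43.2%, 27.1 to 60.5%). Over all genes the shares were 28.6% in the thresholded and 55.4% in the pooled list. In both lists the interval of the single genes includes the share of all genes, and that of the clustered genes lies below it. Counting as clustered only P450 genes next to another P450 gene on the arm, 0 of 43 were bound. The others had 6 of 39 (15.4%), against 28.6% of all genes. By that count Cyp9f2 is a single gene.

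The largest array, on 2R from 14871366 to 14903095, spans 31730 bp and holds Cyp6a22, Cyp6a17, Cyp6a23, Cyp6a19, Cyp6a9, Cyp6a20, Cyp6a21, Cyp6a8 and Cyp317a1. It had no thresholded summit and 1 pooled summit, 208 bp upstream of a start of Cyp317a1. Cyp6a20, which affects male aggression, and Cyp6a8, a lauric acid hydroxylase, thus had none. Of the 16 clusters, 1 contained a thresholded summit between its outer ends, that of Cyp9f3 and Cyp9f2 on 3R. This summit, at rank 82 with a signal of 1618, was intergenic and had its nearest start 1296 bp away at DNAlig3, a DNA ligase gene, so it counted for neither P450 gene.

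Of the 6 bound genes, 3 (Cyp310a1, Cyp6a2 and Cyp4d20) lie inside a larger gene. There were 17 such P450 genes in all, so 3 of 17 were bound (17.6%, interval 3.80 to 43.4%), against 15.1% of all genes inside another gene. Among the 65 not so placed 3 were bound (4.62%, 0.962 to 12.9%), and the intervals overlap. Pooled summits stood at 9 of 17 (52.9%) and 15 of 65 (23.1%), against 34.6% of all genes inside another gene. Of the 13 host genes, 7 were themselves bound (53.8%, 25.1 to 80.8%), and the interval includes the 28.6% of all genes. All 3 nested bound genes had their summit in a host intron, and the lists cannot assign it to host or guest. Genes next to a P450 gene on the arm, P450 genes left out, were bound at 19.6% (21 of 107, interval 12.6 to 28.4%), a share between those of the P450 genes and of all genes.

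Below the threshold lay 18 further P450 genes with a summit in the pooled list alone. They make up the step from 6 to 24 of 82 genes (7.32 to 29.3%). Over all genes the step was from 3984 to 7725 of 13945 (28.6 to 55.4%), so such genes are not particular to the group. Of the 18, 3 were close to the threshold. Cyp317a1, the last gene of the large array, ranked 7238 with a signal of 110.181, next to the 110.31 of the last thresholded peak. It ranked 6783, 6638 and 7395 in the 3 replicates, so it was about as strong in each. Cyp6t1 ranked 7447 (signal 107; replicate ranks 8042, 8703 and 6800), 238 bp upstream. Cyp6a16 ranked 7623 (signal 104), 153 bp upstream, with a summit in replicate 3 alone, at rank 5638. The next were Cyp313b1 at 12682 (signal 59.1), Cyp9c1 at 13655 (54.4) and Cyp9b2 at 14221 (51.9). A wide gap thus separated the 3 near the threshold from the others.

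**Figure D4:**
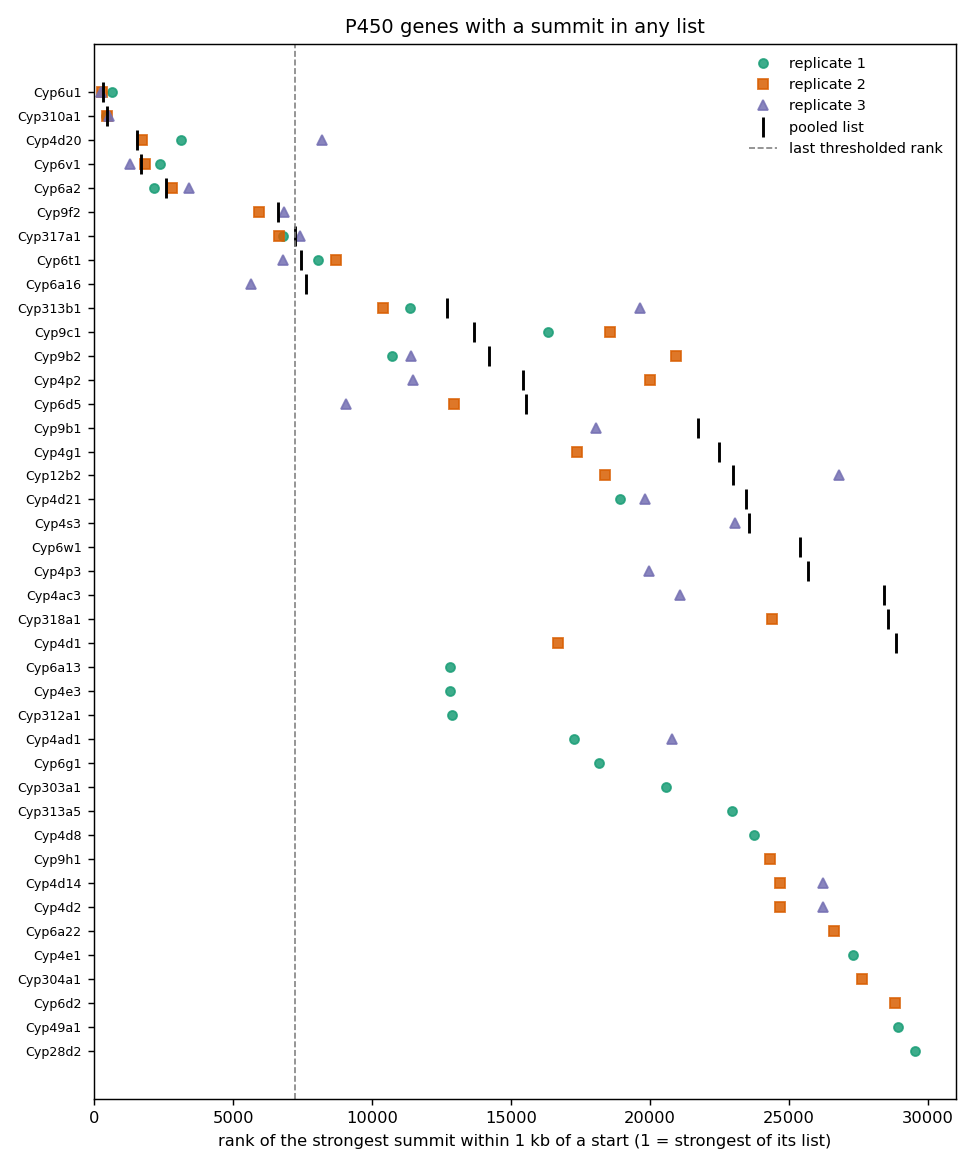
Rank of the strongest summit within 1 kb of a start for each P450 gene with a summit in any list; symbols are the replicates, black strokes the pooled list and the dashed line the last thresholded rank, 7227. Cyp317a1, Cyp6t1 and Cyp6a16 lie just right of the line, and the next gene, Cyp313b1, lies at 12682.

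The share of P450 genes with a summit in every replicate was also below that of all genes. A summit in all 3 replicates was found at 9 P450 genes: Cyp310a1, Cyp6a2, Cyp6u1, Cyp4d20, Cyp6v1, Cyp317a1, Cyp6t1, Cyp313b1 and Cyp9b2. These are 9 of 82, against 32.5% of all genes. Another 9 had one in 2 replicates, 22 in 1 replicate (26.8%, against 18.8% of all genes) and 42 in none (51.2%, against 25.3%). Of the 82, 41 had no summit in the pooled or any replicate list.

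Of 8 listed genes linked to insecticide resistance (Cyp6g1, Cyp6g2, Cyp6a2, Cyp6a8, Cyp12d1-d, Cyp12d1-p, Cyp12a4 and Cyp6t3), 1 was bound, Cyp6a2, and 6 had no summit in any list. Among all 82 P450 genes 7.32% were bound and 41 had no summit in any list, and 28.6% of all genes were bound. A list of 8 genes is too short to tell its share bound from either share. Cyp6g1, whose overexpression confers resistance to DDT and neonicotinoids, had a summit in replicate 1 alone, at rank 18176. Its cluster neighbours Cyp6g2 and Cyp6t3, the latter also linked to ecdysteroid synthesis, were among the 6. For Cyp6a8, 35.9% of the 50-base words within 1 kb of the start occur again in the genome. In all, 6 P450 genes exceeded 10% repeated words, whereas 68 had no repeated word. None of these 6 was bound, but with 7.32% of all P450 genes bound they are too few to show a difference. Cyp317a1, with 16.1% repeated words, was among them and had a summit in all 3 replicates and at pooled rank 7238.

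Of 5 listed genes of cuticle or hydrocarbons (Cyp4g1, Cyp4g15, Cyp301a1, Cyp303a1 and Cyp49a1), none was bound and 1 had a pooled summit. Cyp4g1, the oenocyte enzyme that completes cuticular hydrocarbon synthesis, had a pooled summit at rank 22480, 902 bp downstream of its start in its coding exon, with a summit in replicate 2 alone, at rank 17357. Cyp4g15 had no summit in any list. Cyp303a1, needed for sensory bristles, had a summit in replicate 1 alone, at rank 20560. Of 5 listed genes of behaviour or hormones (Cyp6a20, Cyp4e3, Cyp4e2, Cyp4d21 and Cyp6a13), none was bound and 1 had a pooled summit. Bound genes made up 7.32% of the P450 genes and 28.6% of all genes, and those with a pooled summit 29.3% and 55.4%. With 5 genes each, the cuticle and behaviour lists cannot be told apart from these shares. Cyp4d21, a fatty acid hydroxylase required for male mating, had it at rank 23452, 533 bp upstream, with summits in replicates 1 and 3 at ranks 18929 and 19812. Cyp4e3 and Cyp6a13 had a summit in replicate 1 alone, at ranks 12813 and 12784, and Cyp4e2 and Cyp6a20 had none in any list. Cyp305a1, a neighbour of cyc itself, had no summit in any list, and its nearest thresholded summit lay 4638 bp away.

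Most genes for the redox partners of the P450 enzymes were bound. Of 5 electron donor genes, 4 were bound (80.0%, interval 28.4 to 99.5%). Cyt-b5, the cytochrome b5 that supports microsomal P450s, ranked 1649 with relative signals of 1.84, 1.26 and 2.21 (1.77 ± 0.478, SD, n = 3). Cpr, the reductase on which microsomal P450s depend, ranked 3666, 117 bp from its start, with 0.983, 1.15 and 0.711 (0.948 ± 0.222, SD, n = 3). Cyt-b5 lay above the median peak in every replicate, and Cpr on both sides of it. The ferredoxin genes were lower. Fdx2, at rank 4824, averaged 0.711 ± 0.133 (SD, n = 3) with CG15012 as its nearest start, and Fdx1, at rank 5380, averaged 0.704 ± 0.0358 (SD, n = 2) with no peak in replicate 1. The gene dare, the adrenodoxin reductase, had none.

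Of 6 regulators of xenobiotic response, 4 were bound (66.7%, interval 22.3 to 95.7%). Keap1, the inhibitor of the cap-and-collar factor, ranked 423 at 3.72 ± 0.497 and cnc, which encodes that factor, ranked 906 at 2.53 ± 0.467 (both SD, n = 3). Hr96, a nuclear receptor of xenobiotic and lipid response, ranked 465 at 3.50 ± 0.398, and maf-S, the partner of the cap-and-collar factor, ranked 3310 at 1.06 ± 0.342 (both SD, n = 3). The nearest start to the summit was that of cnc itself for cnc, but kuk for Keap1, EMC6 for Hr96 and CG11110 for maf-S. The bHLH-PAS gene ss had a weak pooled summit at rank 21978 and tgo had none. The donor and regulator lists are short, and their intervals reach down to the 28.6% of all genes or below it.

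Other enzyme families of detoxification had thresholded shares of 7.14 to 11.4%. Glutathione transferases of the delta class had 1 of 11 bound (9.09%, interval 0.230 to 41.3%), GstD1 at rank 2931 (1.18 ± 0.513, SD, n = 3). The epsilon class had 1 of 14 (7.14%, 0.181 to 33.9%), GstE13, at rank 34 with relative signals of 14.9, 11.8 and 9.84 (12.2 ± 2.57, SD, n = 3), higher than at any of the 82 P450 genes. Both intervals include the 28.6% of all genes. Pooled summits stood at 15 of these 25 Gst genes (60.0%, interval 38.7 to 78.9%), against 55.4% of all genes and 29.3% of the P450 genes. GstE1, GstE2 and GstE10 share their strongest pooled summit, as do GstE5 and GstE6. The interval takes genes as independent, which these are not. Of the UDP-glycosyltransferases 4 of 35 were bound (11.4%, interval 3.20 to 26.7%), with Ugt302E1 and Ugt302K1 sharing 1 summit, and 10 of 35 had a pooled summit (28.6%, 14.6 to 46.3%). With genes taken as independent, both intervals lie below the shares of all genes (28.6 and 55.4%), as do those of the P450 genes. Low shares in both lists were therefore not particular to the P450 genes. Among 7 P450 genes of ecdysone metabolism, shd, the enzyme that makes 20-hydroxyecdysone, was the bound one, at rank 4905 with relative signals of 0.791, 0.523 and 1.10 (0.805 ± 0.289, SD, n = 3).

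**Figure D5:**
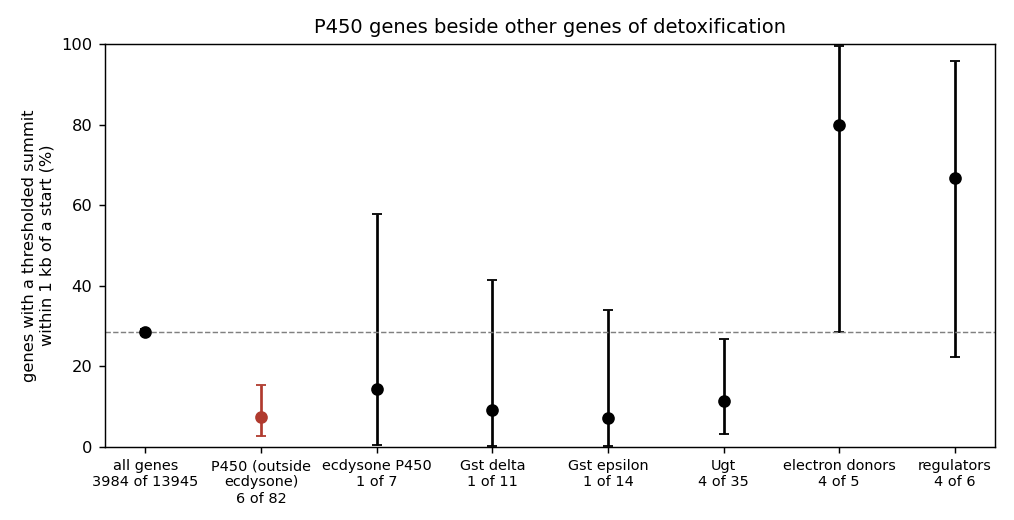
Share of bound genes (%) in each list; points are shares, bars exact 95% intervals and the dashed line the 28.6% of all genes. The P450, Gst and Ugt points lie at 7.14 to 11.4%, and those of electron donors and regulators at 80.0 and 66.7% with wide intervals.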

How the data were processed

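The files were narrowPeak lists of ChIP-seq peaks on dm6 for 3 replicates, for the replicates pooled, and for the peaks that the authors kept as reproducible. Per the texts deposited with them, the lists derive from the replicates' alignments and 1 control alignment, which was not analysed here. The signal of each peak (column 7 of the layout) is the authors' deposited value, and the summit is the deposited peak start plus the deposited offset. Which aligner and which peak caller made them is not given in the sources used here. Since the lists hold no read counts, depth is unknown. The dm3 lists were not used.

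Summits were assigned to the 19607 transcript starts of protein-coding genes in Ensembl release 115. For each thresholded peak, the replicate peak that overlaps it and has the closest summit gave the replicate signal, which was divided by its median over thresholded peaks that had one. Neighbouring peaks can share a replicate peak. Gene models and the Release 6 sequence share their coordinates, and all peaks ended inside the arms. Computation used Python 3.11.15, numpy 2.4.6, scipy 1.17.1 and matplotlib 3.10.9, and the assignment was checked on simulated data. Shares carry Clopper-Pearson 95% intervals, and a count of 0 was read as allowing 3.

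With 1 group and no comparison between samples, no test was made. The members and gene lists were chosen with earlier results of these data known, and so describe rather than test. The genes named were all bound members, all mitochondrial members, the 6 next in pooled rank, Cyp305a1, lists of known roles, and bound donors and regulators. The other listed genes named were chosen after their values were seen. Alternatives varied the window (0.5, 2 and 5 kb), the starts, the assignment, the peaks, the cluster gap (5 and 20 kb) and the replicates whose overlap was required.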

Additional observations from a re-analysis of the deposited data

How the results depend on the processing

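The window was the choice that moved results. At 5 kb the number of bound P450 genes went from 6 to 19, or 23.2% against 50.8% of all genes, and those with a pooled summit from 24 to 47, or 57.3% against 79.0%. The clustered minus single share went from -11.3 to -31.7 percentage points, with 4 of 45 clustered (8.89%) and 15 of 37 single genes (40.5%). Under the other alternatives bound genes numbered 4 to 7 (4.88 to 8.54%), and those with a pooled summit 20 to 26. The lowest count came with 500 bp (24.8% of all genes) and with each summit given to its nearest gene (21.2%). The clustered minus single share lay between -15.4 and -5.89, and the mitochondrial minus microsomal share, -8.22 in the report, between -13.5 and -5.48 under every alternative including 5 kb. Leaving out members in repeated sequence, chosen after seeing the data, left 6 of 76 (7.89%).

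Leaving out a replicate was a filter on the thresholded list, which derives from all 3 replicates. A thresholded peak was kept if it overlapped 1 of the 7227 strongest peaks in each of the other replicates. Without replicate 1, 2 or 3 this kept 5706, 5323 and 5380 peaks, so counts of bound genes could only stay or fall. The bound P450 genes then numbered 6, 5 and 5 (6.10 to 7.32%), against 19.9 to 24.2% of all genes. The clustered minus single share ranged from -13.5 to -11.3 and the mitochondrial minus microsomal share from -8.22 to -6.85. Neither the thresholded nor the pooled list could be rebuilt without a replicate, and single replicate lists gave 22 to 23 genes with a summit. No paired analysis was possible because the samples form 1 group. Depth is unknown, so absence from a list is not absence of binding, and groups of 9 and 3 genes limit any statement on clans.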
